A study of Mus musculus with 4 samples.

Results

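The nuclear genes of oxidative phosphorylation were followed across blood cell lineages and treatments in mouse bone marrow. The genes were found by symbol: names beginning Nduf followed by a, b, c, s or v and a number, the Sdh genes a to d, and names beginning Uqcr, Cox4 to Cox8 or Atp5. Names of pseudogenes, the assembly factors beginning Ndufaf and Cox6a2 were left out, and at least 50 unique molecular identifiers (UMIs, tags that count single RNA molecules) were required over all cells. This gave 79 genes of 83 matching symbols and of 32285 genes in all. By symbol they were assigned to complex I (36 genes), complex II (4), complex III (8), complex IV (14) and complex V (17). This places Ndufa4 in complex I. Just inside the minimum lay Cox7a1 with 160 UMIs and Cox4i2 with 599. Just outside lay Cox7b2 with 16 UMIs, Cox8b with 1, and Ndufa4l2 and Cox8c with 0.

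Complexes I to IV of the inner mitochondrial membrane pass electrons from NADH and succinate to oxygen, and complexes I, III and IV pump protons as they do so. Complex V, the ATP synthase, uses the proton gradient to make ATP. Most subunits are encoded in the nucleus and imported, while a small core is encoded by mitochondrial DNA. Adult haematopoietic stem cells (HSCs) are known for low respiration and a reliance on glycolysis, erythroid precursors for many mitochondria that also make haem, and mature neutrophils for few mitochondria and a glycolytic metabolism.

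Single-cell 3′ RNA counts came from 6 female mice aged 6 weeks that carried a tamoxifen-inducible Cre under Tppp3 (Tppp3CreER) and a Cre-dependent reporter (LSLTdTomato). Tamoxifen with rapamycin was injected into 2 mice at postnatal days 0 and 3, rapamycin alone into 2 mice at postnatal day 30 (late rapamycin, without tamoxifen), and tamoxifen alone into 2 mice at postnatal days 0 and 3. Rapamycin inhibits the growth kinase complex mTORC1, and the design text places the isolation of cells after 2 weeks. No untreated mouse is analysed here, and all 6 mice carried both transgenes. The cell type label names lineage-negative Kit+ cells with and without Sca1, and whole bone marrow. On each of 2 days, 1 mouse of each treatment was marked with a hashtag antibody and the 3 were pooled, so that replicate 1 is day 1 and replicate 2 is day 2. The hashtag table calls the third mouse of each day a control, which was read as the late rapamycin mouse that the labels number likewise. The labels number the tamoxifen mice 1 and 4, whereas in the hashtag table these numbers stand for mice given tamoxifen with rapamycin. The table was followed, and if the label numbers were hashtag numbers, both tamoxifen treatments would be exchanged.

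In all, 37242 cells with 24715755 to 40892418 UMIs per mouse were kept, and 25342 of them fell into a lineage gate, that is, a group of cells defined by marker genes. Gates with at least 50 cells in every mouse were tested (8 of 15). The HSC gate held 2974 cells, in which 11 of its 12 markers were raised at least 2-fold over the other cells. Its leading genes included the markers Mecom and Hlf, beside genes outside the list such as Rora, Prkg1 and Dlg2. Gated cells of late rapamycin replicate 1 stood apart: that mouse gave 1453 cells of the granulocyte-monocyte and neutrophil progenitor gate, against 391 to 773 in the other 5 mice, but only 77 mature neutrophils and 82 pro-B and pre-B cells. Where that mouse lay far from the others in a value below, the value without it is given. Between the days, 73 cell barcodes of kept cells were shared. Levels are CPM, a gene's UMIs per 1000000 UMIs of that gate in that mouse, and 3′ UMIs are not divided by gene length. Log2 differences and adjusted p-values (Benjamini-Hochberg over all genes, threshold 0.05) are from edgeR's quasi-likelihood test on UMIs summed per mouse, with TMM scaling and the mouse or the day as a block.

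The 79 genes together took 2.44 ± 0.06% of the UMIs in the erythroid progenitor gate and 1.97 ± 0.13% in the granulocyte-monocyte and neutrophil progenitor gate (SD, n = 6 mice here and below). Monocytes were at 1.54 ± 0.14%, pro-B and pre-B cells at 1.46 ± 0.12%, and the gate of Flt3 and Dntt multipotent and lymphoid-primed progenitors at 1.18 ± 0.05%. The myelocyte gate was at 0.927 ± 0.067%, mature neutrophils were at 0.559 ± 0.046%, and the HSC gate was at 1.06 ± 0.07%. In the order of these levels, the ranges over mice of monocytes and of pro-B and pre-B cells overlapped (1.42 to 1.80% and 1.26 to 1.59%), as did those of the Flt3 and Dntt gate and the HSC gate (1.10 to 1.26% and 1.00 to 1.17%). HSCs and myelocytes overlapped as well, while erythroid progenitors (2.38 to 2.53%) and mature neutrophils (0.500 to 0.614%) did not overlap their neighbours. Without late rapamycin replicate 1, granulocyte-monocyte and neutrophil progenitors were at 1.92% and monocytes at 1.49%.

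**Figure D1:**
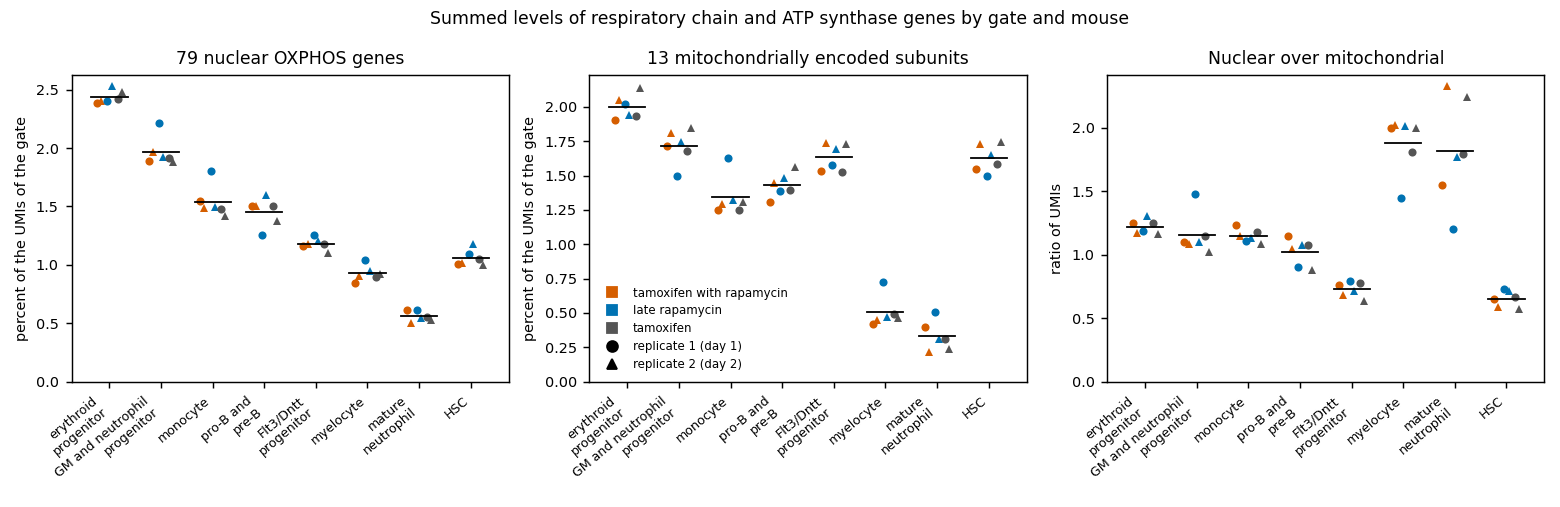
Percent of a gate's UMIs in the 79 nuclear genes (left) and in the 13 mitochondrially encoded subunits (middle), and the ratio of both (right), for each gate and mouse; points are mice, coloured by treatment and shaped by day, black lines are means of 6 mice, and GM stands for granulocyte-monocyte. The nuclear genes are at 2.38 to 2.53% in erythroid progenitors and at 0.500 to 0.614% in mature neutrophils, and the ratio is lowest in the HSC and Flt3/Dntt gates.

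The subunits encoded by mitochondrial DNA followed another order. They took 2.00 ± 0.09% of the UMIs in erythroid progenitors, 1.71 ± 0.12% in granulocyte-monocyte and neutrophil progenitors, 0.504 ± 0.11% in myelocytes, 0.329 ± 0.109% in mature neutrophils and 1.63 ± 0.10% in the HSC gate. The ratio of nuclear to mitochondrially encoded UMIs was therefore 1.22 ± 0.06 in erythroid progenitors, 1.88 ± 0.23 in myelocytes, 1.82 ± 0.42 in mature neutrophils and 0.653 ± 0.064 in the HSC gate. Without late rapamycin replicate 1 the myelocyte ratio was 1.97. In the Flt3 and Dntt gate the ratio was 0.726 ± 0.060, which overlapped that of the HSC gate. All 6 mice of the erythroid, granulocyte-monocyte and neutrophil, monocyte, myelocyte, neutrophil and pro-B gates had a higher ratio than any mouse of the HSC gate.

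Other features of the cells also differed between gates. At least 2 of 10 division genes were detected in 89.8 to 95.5% of erythroid progenitors, 79.8 to 94.8% of granulocyte-monocyte and neutrophil progenitors, 31.3 to 56.2% of myelocytes, and 13.4 to 27.5% of the HSC gate. After thinning every cell to 1000 UMIs, these shares were 57.8 to 64.6%, 35.2 to 43.9%, 25.7 to 41.7% and 7.77 to 15.4%. Myelocytes had a larger share of such cells than the HSC gate. Their mean percent of UMIs in the nuclear genes was lower, with overlapping ranges, whereas the members' median log2 difference with TMM scaling was 0.75. A link between division and level in myelocytes was not tested. Median UMIs per cell ran from 9167 to 14068 in erythroid progenitors and from 2317 to 3870 in the HSC gate. Genes longer than 100000 bases took 9.57% of the UMIs of erythroid progenitors and 21.5% of those of the HSC gate on average, and the nuclear RNA Malat1 took 0.216% and 0.811%. Cytosolic ribosomal proteins took 22.0% in erythroid progenitors, 4.24% in myelocytes and 15.7% in the HSC gate. The part of length, Malat1, depth and ribosomal content in the levels was not tested, and division was examined by leaving out the cells in which a division gene was seen.

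In erythroid progenitors, 76 of the 77 members tested were higher than in the HSC gate and 1 was lower, where 42.4% of all 11395 genes were higher and 43.5% lower. The median log2 difference of the members was 1.64, against -0.01 for all genes. Members with the largest differences were Cox6b2 (a form of complex IV subunit 6B known mainly from testis), Atp5g1 (one of the genes for the proton-carrying subunit c of ATP synthase), Cox6a1 (complex IV) and Uqcrq (complex III). Cox6b2 had 188, 218 and 251 CPM in erythroid progenitors (lowest, median and highest mouse), against 39.5, 45.0 and 49.5 CPM in the HSC gate. Its log2 difference was 2.67 ± 0.08 (SE, adjusted p = 6.2e-19). Atp5g1 had 795, 809 and 883 CPM in erythroid progenitors and 153, 177 and 205 CPM in the HSC gate, a log2 difference of 2.61 ± 0.06 (adjusted p = 2.7e-21). Neither gene overlapped between gates. Genes named for large differences, here and in the gates and dividing cells below, were picked with the same sign in all 6 mice. For them that sign adds no support. Cox6a1 and Uqcrq differed by 2.53 ± 0.07 and 2.40 ± 0.07 (adjusted p = 4.3e-20 and 2.2e-19). The lower member was Cox7a2l, which encodes a relative of complex IV subunit 7A found in supercomplexes of complexes III and IV. It had 202, 212 and 228 CPM in erythroid progenitors and 289, 324 and 330 CPM in the HSC gate, a log2 difference of -0.18 ± 0.05 (adjusted p = 0.0028), lower in 6 of 6 mice.

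Every complex took part in the erythroid rise: 36 of 36 tested members of complex I, 4 of 4 of complex II, 8 of 8 of complex III, 11 of 12 of complex IV and 17 of 17 of complex V were higher. Within succinate dehydrogenase (complex II), the membrane anchor Sdhd differed by 2.25 ± 0.07 and the iron-sulfur subunit Sdhb by 1.77 ± 0.09, while the anchor Sdhc differed by 1.26 ± 0.07 and the flavoprotein Sdha by 0.60 ± 0.06. All 4 were past the threshold. Sdha had 134 to 147 CPM in erythroid progenitors and 110 to 133 CPM in the HSC gate, so that its 2 ranges nearly touched. Over the other lists, 78 of 78 mitochondrial ribosome genes, 19 of 19 import and chaperone genes, 16 of 16 genes of the TCA cycle and pyruvate dehydrogenase, and 12 of 13 mitochondrially encoded subunits were higher in erythroid progenitors and none lower. Of 44 assembly factors and cytochrome c genes, 36 were higher and 1 was lower. Glycolysis was split, with 7 of 14 genes higher and 6 lower. Of regulators of mitochondrial biogenesis, 13 of 16 were higher and 2 lower.

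**Figure D2:**
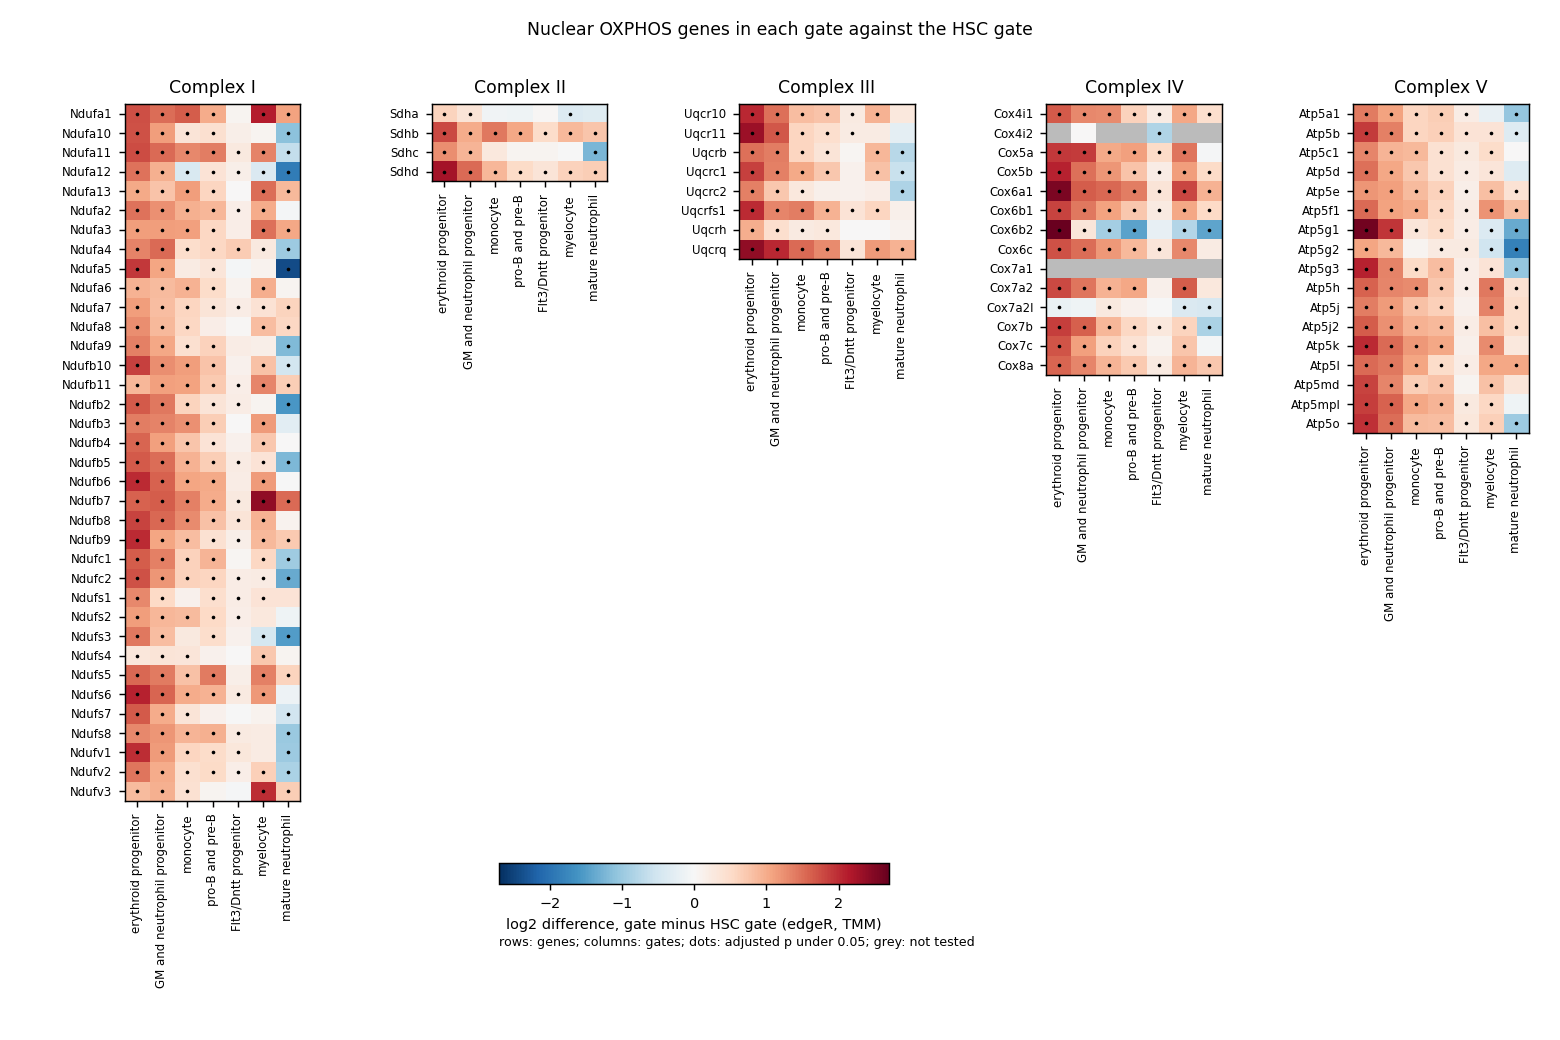
Log2 difference between each gate and the HSC gate (edgeR, TMM) for every tested nuclear gene, grouped by complex; rows are genes, columns are gates, dots mark adjusted p under 0.05 and grey cells were not tested. Erythroid progenitors are higher for 76 of 77 genes, Cox7a2l is below 0 in 5 of the 7 gates, and mature neutrophils hold both directions.

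In the granulocyte-monocyte and neutrophil progenitor gate, marked by Elane, Mpo and Prtn3, 76 of 78 members were higher than in the HSC gate and 0 lower, against 38.8% of all genes higher and 38.1% lower. The median log2 difference was 1.23 for the members and 0.01 for all genes. Uqcrq had 249, 268 and 399 CPM in the progenitors and 72.8, 82.6 and 106 CPM in the HSC gate (2.04 ± 0.09, adjusted p = 1.4e-12). Atp5g1 had 480, 513 and 691 CPM in the progenitors and 153, 177 and 205 CPM in the HSC gate (1.93 ± 0.09, adjusted p = 2.6e-12). The highest progenitor value of both genes came from late rapamycin replicate 1, and without that mouse their differences were 1.97 and 1.84. Cox5a (complex IV) and Uqcr11 (complex III) followed with 1.89 ± 0.08 and 1.68 ± 0.08. The members past no threshold were Cox7a2l (-0.12 ± 0.06, adjusted p = 0.068, 178 to 257 CPM in the progenitors and 289 to 330 CPM in the HSC gate) and Cox4i2 (0.02 ± 0.26, adjusted p = 0.95). When cells with any UMI of a division gene were left out of both gates, 71 of 77 members were higher and 1 lower, where 50.2% of all genes were called in either direction. Glycolysis rose here as well, with 11 of 14 genes higher and 2 lower.

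Monocytes had 69 of 77 members higher than the HSC gate and 2 lower, where 34.1% of all genes were higher and 35.3% lower. The members' median log2 difference was 0.85. Ndufa1, an accessory subunit of complex I, had 113, 134 and 154 CPM in monocytes and 42.5, 53.4 and 60.6 CPM in the HSC gate (1.63 ± 0.12, adjusted p = 6.7e-11). Sdhb had 150, 175 and 189 CPM in monocytes and 58.8, 74.9 and 99.8 CPM in the HSC gate (1.42 ± 0.12, adjusted p = 4.3e-10). Cox6a1 (1.54 ± 0.09) and Uqcrq (1.53 ± 0.11) were also among the most raised. Cox6b2 fell in monocytes, to 8.79, 20.8 and 27.1 CPM, against 39.5, 45.0 and 49.5 CPM in the HSC gate (-0.91 ± 0.20, adjusted p = 0.00035). Ndufa12, another accessory subunit of complex I, was lower by a log2 difference of -0.41 ± 0.15 (adjusted p = 0.017). Among complex II genes, Sdhd was higher in monocytes while Sdha (-0.09 ± 0.11, adjusted p = 0.47) and Sdhc (0.28 ± 0.13, adjusted p = 0.060) did not pass.

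Pro-B and pre-B cells, marked by Vpreb1, Igll1 and Ebf1, had 68 of 77 members higher and 1 lower, against 32.8% and 35.4% of all genes. The median log2 difference of the members was 0.62. Ndufs5 (1.403 ± 0.096), Ndufa11 (1.39 ± 0.09), Cox6a1 (1.38 ± 0.09) and Uqcrq (1.27 ± 0.10) had the largest differences. Ndufs5, a complex I subunit, had 139, 162 and 193 CPM in pro-B and pre-B cells and 60.1, 65.7 and 83.5 CPM in the HSC gate. The lower member was again Cox6b2, with 9.57, 16.7 and 29.0 CPM in pro-B and pre-B cells, against 39.5, 45.0 and 49.5 CPM in the HSC gate (-1.45 ± 0.17, adjusted p = 1.2e-08). Glycolysis went the other way from the members, with 1 of 14 genes higher and 8 lower. Among non-dividing cells, 36 of 77 members were higher and 4 lower in pro-B and pre-B cells, where 59.9% of all genes were called in either direction. The summed level was 1.02%, against 0.957% in the HSC gate, so that most of the distance in level was not seen there.

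The gate of Flt3 and Dntt multipotent and lymphoid-primed progenitors lay closest to the HSC gate. There 46 of 78 members were higher and 1 lower, while 21.4% of all genes were higher and 21.2% lower. The median log2 difference of the members was 0.19. Ndufa4, first described in complex I and later found in complex IV, had 359, 473 and 561 CPM in the Flt3 and Dntt gate and 258, 284 and 389 CPM in the HSC gate (0.68 ± 0.05, adjusted p = 1.1e-13). Cox5a (0.51 ± 0.05), Sdhb (0.49 ± 0.08) and Uqcrfs1 (0.38 ± 0.07), the Rieske iron-sulfur protein of complex III, came next. All 4 were picked as higher in the Flt3 and Dntt gate in 6 of 6 mice, and the ranges of all but Cox5a overlapped. Cox4i2, the minor form of complex IV subunit 4 known to be induced by low oxygen, was lower, with 0.902, 2.55 and 6.45 CPM in the Flt3 and Dntt gate and 1.60, 4.27 and 14.4 CPM in the HSC gate (-0.82 ± 0.28, adjusted p = 0.017). In non-dividing cells alone, 12 of 77 members were higher and 0 lower, where 28.75% of all genes were called in either direction.

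The neutrophil lineage split the members. In myelocytes, marked by Camp, Ngp and Ltf, 57 of 77 members were higher than in the HSC gate and 7 lower by the TMM-scaled test, where 37.3% of all genes were higher and 42.3% lower. With plain library totals the split was 16 higher and 39 lower, and the like shares of all genes are not given here. Plain totals moved the median of all genes to -1.08 in myelocytes, -1.41 in mature neutrophils, -0.33 in granulocyte-monocyte and neutrophil progenitors, -0.33 in monocytes, -0.16 in pro-B and pre-B cells, -0.06 in the Flt3 and Dntt gate and -0.41 in erythroid progenitors. The median of the members was -0.24 in myelocytes on that scale and 0.75 with TMM. The direction of the members against the HSC gate thus flipped with the scaling. By CPM, 16 members were higher in all 6 mice and 38 lower in all 6. The like share of all genes is not given here, so these counts do not set the members apart.

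Ndufb7, an accessory subunit of complex I, was among the members higher in myelocytes under both scalings, with 230, 260 and 292 CPM in myelocytes and 85.5, 93.9 and 124 CPM in the HSC gate (2.39 ± 0.10, adjusted p = 5.1e-15). Ndufa1 had 99.8, 117 and 132 CPM in myelocytes and 42.5, 53.4 and 60.6 CPM in the HSC gate (2.12 ± 0.10, adjusted p = 1.6e-13). Ndufv3 of complex I (2.00 ± 0.09) and Cox6a1 (1.80 ± 0.08) were next, and none of these 4 genes overlapped between gates. On the lower side stood Cox6b2 (-0.78 ± 0.17), Atp5g2 (-0.55 ± 0.09), Ndufs3, a core subunit of complex I (-0.48 ± 0.13), and Cox7a2l (-0.40 ± 0.09). Atp5g2, another gene for subunit c, had 127, 157 and 186 CPM in myelocytes and 424, 446 and 509 CPM in the HSC gate (adjusted p = 9.5e-06). Beside the members, all 13 mitochondrially encoded subunits and 76 of 80 cytosolic ribosomal protein genes were lower in myelocytes, while 11 of 14 glycolysis genes were higher and 1 was lower.

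In mature neutrophils, marked by Retnlg and Cxcr2, 24 of 77 members were higher and 29 lower, against 32.5% and 44.1% of all genes. With DESeq2's size factors in the same test the split was 12 higher and 33 lower, and with plain totals 1 higher and 64 lower. The shares of all genes called under these 2 scalings are not given here. The median log2 difference was -0.03 for the members and -0.38 for all genes, and -1.06 and -1.41 with plain totals. By CPM, Ndufb7 was higher in 6 of 6 mice, with overlapping ranges of 119, 142 and 160 CPM in mature neutrophils and 85.5, 93.9 and 124 CPM in the HSC gate (1.53 ± 0.15, adjusted p = 6.0e-11). Atp5g2 had 26.8, 79.1 and 91.5 CPM in mature neutrophils and 424, 446 and 509 CPM in the HSC gate (-1.82 ± 0.19, adjusted p = 9.9e-11). The complex I genes Ndufa5 (-2.41 ± 0.40), Ndufa12 (-1.89 ± 0.32) and Ndufb2 (-1.58 ± 0.31) were lower too. Ndufa5 averaged 6.17 ± 6.05 CPM in mature neutrophils and 62.8 ± 10.3 CPM in the HSC gate. No mouse's mature neutrophils reached the lowest HSC value of these 4 lower genes. Mature neutrophils held 77 to 399 cells and 174861 to 611684 UMIs per mouse.

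Across the 8 gates, erythroid progenitors had the highest mean level of 65 of the 79 members, and mature neutrophils the lowest of 70. These are levels in CPM without TMM scaling. The like counts over all genes are not given here, so they do not set the members apart. The members with the most UMIs in each complex, as assigned by symbol, were Ndufa4, Sdhb, Uqcrh, Cox4i1 and Atp5g2. After Ndufa4 (112870 UMIs), Ndufb9 had the most of complex I (51340). Uqcrh (complex III) differed from the HSC gate by 0.99 ± 0.05 in erythroid progenitors, 0.45 ± 0.06 in granulocyte-monocyte and neutrophil progenitors and 0.0048 ± 0.098 in myelocytes (adjusted p = 0.97). By CPM, Uqcrh was lower in myelocytes in 6 of 6 mice, with 124 to 188 CPM in myelocytes and 289 to 327 CPM in the HSC gate. Cox4i1, the main form of complex IV subunit 4, differed by 1.65 ± 0.05 in erythroid progenitors and 1.05 ± 0.09 in myelocytes, where its CPM overlapped those of the HSC gate (371 to 473 in myelocytes and 369 to 423 in the HSC gate). The ratio of the highest to the lowest mean level over the gates was 1.81 for Ndufa3, 21.1 for Atp5g1, 26.4 for Cox6b2 and 29.1 for Ndufa5. The lowest means of Cox6b2 and Ndufa5 were only 8.285 and 6.167 CPM, in mature neutrophils, so their ratios are imprecise. Cox7a1 and Cox4i2 were at 0 there and have no finite ratio. The annotation places other genes over Cox4i1, Ndufb2, Ndufa9, Atp5o, Ndufa11, Ndufs3 and Ndufs6. For Cox4i1 (over its whole length), Ndufb2 and Atp5o, an overlapping entry lies on the same strand, so reads may be mixed under any strand setting. Other overlaps of these genes lie on the opposite strand. The strand setting of the counting is not given in the sources used here, so reads may be mixed there too. Named pseudogenes of Uqcrh and Atp5k in the annotation make their counts uncertain in the same way.

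Several subunits are encoded by more than one gene, and the balance within such groups was compared over the 6 mice by an exact two-sided permutation test of the within-mouse difference, whose smallest possible p is 0.0312. Of 49 tests, 29 reached that p, which is only possible with the same sign in 6 of 6 mice. The smallest adjusted p was 0.053, so that none passed 0.05 after adjustment. Of the subunit c genes, which encode the same mature protein behind different import sequences, Atp5g1 held 41.4, 42.4 and 43.3% of the UMIs in erythroid progenitors (lowest, median and highest mouse), against 21.2, 23.7 and 24.9% in the HSC gate. In granulocyte-monocyte and neutrophil progenitors it held 34.4, 36.5 and 42.2%, with a mean of 37.0% and, without late rapamycin replicate 1, of 35.9%. Atp5g2 held 36.9, 37.1 and 37.7% in erythroid progenitors and 58.8, 59.6 and 62.2% in the HSC gate. In monocytes, pro-B and pre-B cells, the Flt3 and Dntt gate and myelocytes, Atp5g1 was at 22.5 to 25.4% on average, close to the 23.4% of the HSC gate.

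Cox6b2 made up 28.2, 32.3 and 34.5% of the Cox6b1 and Cox6b2 UMIs in erythroid progenitors, against 18.4, 20.02 and 23.7% in the HSC gate. In the 6 other gates its mean share was 5.77 to 15.8%, below the HSC gate in 6 of 6 mice of each. Cox7a2l made up 34.9, 39.2 and 41.6% of its group with Cox7a2 and Cox7a1 in erythroid progenitors, 34.4, 36.4 and 43.8% in myelocytes, 32.7, 47.2 and 50.7% in granulocyte-monocyte and neutrophil progenitors, and 66.2, 73.0 and 74.6% in the HSC gate. Without late rapamycin replicate 1, the mean in granulocyte-monocyte and neutrophil progenitors was 48.1%, and with it 45.5%. Cox7a2 accounted for nearly all of the rest, since the mean share of Cox7a1, a form known from heart and muscle, was at most 0.241%. Cox4i2 was a minor gene everywhere, with 1.37 ± 1.12% of the Cox4i1 and Cox4i2 UMIs in the HSC gate and 0.561 ± 0.226% in granulocyte-monocyte and neutrophil progenitors. Its highest HSC value, 3.53%, was that of late rapamycin replicate 1, without which the HSC mean was 0.941%. In mature neutrophils 0 of 524 UMIs of this pair were Cox4i2, which allows a share of up to 0.573% (3 UMIs, counting error only).

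**Figure D3:**
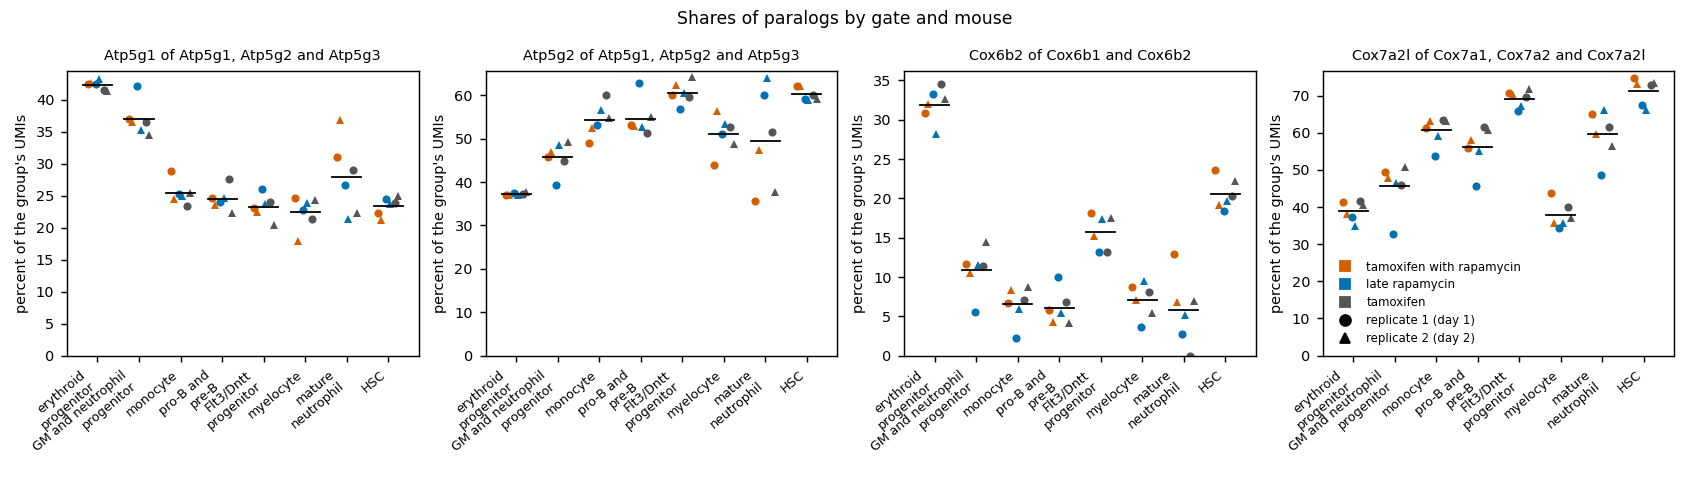
Share of Atp5g1, Atp5g2, Cox6b2 and Cox7a2l in the UMIs of their paralog group, in percent, for each gate and mouse; points are mice, coloured by treatment and shaped by day, and black lines are means of 6 mice. Atp5g1 is at 41.4 to 43.3% in erythroid progenitors and 21.2 to 24.9% in the HSC gate, and Cox7a2l is highest in the HSC and Flt3/Dntt gates.

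The promoters of 65 of the 79 members were found in RefSeq (GRCm38.p6) as windows of 250 bases before to 50 after the start. Letters of 4 motifs known from nuclear genes of mitochondria were searched on both strands, counting a window once. The NRF1 motif (GCGCA, any base, then GCGC) was found in 17 of the 65 members, or 26.15%, against 5.19% of 27025 genes. CCGGAAG (the ETS motif) was found in 17 members (26.15%, against 9.93% of genes), AANATGGCG (the YY1 motif) in 10 (15.38%, against 2.76%) and TCAAGGTCA (the ERR motif) in 2 (3.08%, against 0.47%). The 250 bases before the start had a median GC content of 56.2% in the members and 52.4% in all genes, and its part in the matches was not tested. These are matches of letters and not measured binding. The 150 bases before the RefSeq start are shown for the 3 subunit c genes, whose shares differed between gates, for Sdhd and Cox6a1, which rose strongly in erythroid progenitors, and for Cox7a2l, which was lower there. Capitals mark motif matches, none of which overlap, and all 6 genes lie on the minus strand, at chr11:96075632-96075781 (Atp5g1), chr15:102671048-102671197 (Atp5g2), chr2:73911327-73911476 (Atp5g3), chr9:50603850-50603999 (Sdhd), chr5:115348959-115349108 (Cox6a1) and chr17:83514334-83514483 (Cox7a2l).
Atp5g1: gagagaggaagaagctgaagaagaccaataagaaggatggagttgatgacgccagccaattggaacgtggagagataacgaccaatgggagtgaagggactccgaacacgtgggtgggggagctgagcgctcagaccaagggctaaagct
Atp5g2: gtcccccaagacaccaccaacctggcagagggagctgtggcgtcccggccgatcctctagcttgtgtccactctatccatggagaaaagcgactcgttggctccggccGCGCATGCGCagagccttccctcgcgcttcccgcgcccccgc
Atp5g3: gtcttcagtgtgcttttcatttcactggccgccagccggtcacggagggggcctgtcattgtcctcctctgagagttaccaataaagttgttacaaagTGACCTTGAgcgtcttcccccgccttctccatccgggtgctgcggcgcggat
Sdhd: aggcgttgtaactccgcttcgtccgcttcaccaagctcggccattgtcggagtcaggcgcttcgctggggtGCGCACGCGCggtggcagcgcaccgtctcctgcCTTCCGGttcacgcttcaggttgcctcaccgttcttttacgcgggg
Cox6a1: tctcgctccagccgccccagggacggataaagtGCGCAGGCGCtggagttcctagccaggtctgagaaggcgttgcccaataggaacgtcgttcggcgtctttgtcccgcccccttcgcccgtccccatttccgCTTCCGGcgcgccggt
Cox7a2l: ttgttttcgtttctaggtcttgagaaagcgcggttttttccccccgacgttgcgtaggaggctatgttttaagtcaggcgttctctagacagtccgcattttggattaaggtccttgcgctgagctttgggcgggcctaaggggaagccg
Atp5g2 carries an NRF1 match and Atp5g3 an ERR match in the stretch shown, while Atp5g1 carries none of these letters there. Sdhd and Cox6a1 each carry an NRF1 and an ETS match. Outside the stretch shown but within the searched window, Atp5g3 also had an NRF1 match, Sdhd an ERR match and Cox6a1 another NRF1 match. Cox7a2l carries none in this stretch. The RefSeq starts used for Atp5g2 and Cox7a2l lie 1305 and 2997 bases inside these genes as annotated in GENCODE, and the outer starts were not searched.

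Division was examined within the HSC gate. Cells with UMIs of at least 2 division genes (56 to 177 per mouse) were compared with cells without any (170 to 452 per mouse). Dividing cells had 61 of 77 members higher and 1 lower, where 22.8% of 8309 genes were higher and 21.3% lower. The members' median log2 difference was 0.48, and it was 0.57 for complex V, 0.55 for complex IV, 0.43 for complex III, 0.41 for complex I and 0.32 for complex II. Cox5a had 234, 254 and 274 CPM in dividing cells and 115, 126 and 153 CPM in non-dividing cells (1.04 ± 0.09, adjusted p = 3.8e-20). Ndufa4 had 353, 425 and 522 CPM in dividing cells and 199, 225 and 284 CPM in non-dividing cells (0.94 ± 0.07, adjusted p = 1.3e-23). Cox6b2 (0.95 ± 0.16) and Atp5o (0.85 ± 0.10), the ATP synthase subunit that confers oligomycin sensitivity, were the next. The lower member was Cox7a2l, with 215, 247 and 307 CPM in dividing cells and 328, 353 and 357 CPM in non-dividing cells (-0.38 ± 0.07, adjusted p = 8.6e-06, lower in 6 of 6 mice). Of the mitochondrially encoded subunits, 1 of 12 was higher and 1 lower. A cell with more UMIs is more likely to show division genes, and the part of depth was not tested.

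**Figure D4:**
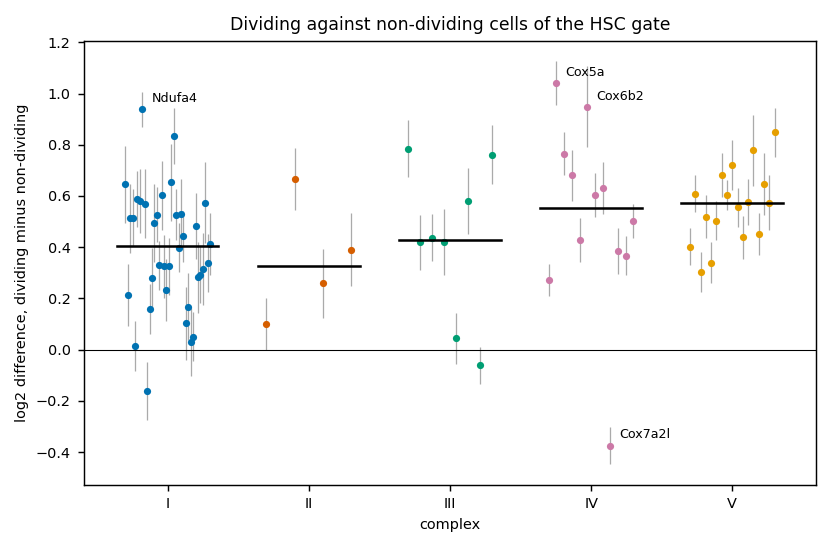
Log2 difference between dividing and non-dividing cells of the HSC gate for 77 nuclear genes by complex; points are edgeR estimates with their SE, and black lines are medians of a complex. Nearly all genes lie above 0, Cox5a is at 1.04 and Cox7a2l at -0.38.

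Treatments were compared in the HSC gate with day as a block and 10913 genes tested, and the 3 comparisons share mice. None of the 77 tested members passed the threshold in any of them. In the HSC gate the members took 1.01 and 1.01% of the UMIs in tamoxifen with rapamycin mice, 1.10 and 1.17% in late rapamycin mice, and 1.05 and 1.00% in tamoxifen mice (day 1, then day 2). The late rapamycin mice were highest on both days. Their share of dividing cells was also highest on both days, with 14.6 and 16.7% in tamoxifen with rapamycin mice, 19.4 and 27.5% in late rapamycin mice and 18.3 and 13.4% in tamoxifen mice. On cells thinned to 1000 UMIs the shares were 9.88 and 10.4%, 12.1 and 15.4%, and 10.9 and 7.77% in the same order.

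For tamoxifen with rapamycin against tamoxifen, edgeR called 0.0825% of all genes, 0 members at the adjusted threshold and 2 at an unadjusted p under 0.05, as it did for 6.10% of all genes (DESeq2 called 0 and 0). The members' median log2 difference was -0.03, with 29 of 77 above 0, as were 49.3% of all genes. The smallest p belonged to Sdhb, with 75.6 and 97.1 CPM in tamoxifen with rapamycin mice and 58.8 and 63.4 CPM in tamoxifen mice (0.51 ± 0.15, adjusted p = 0.52). With gates set on thinned cells the sign of Sdhb turned, to a log2 difference of -0.072. Ndufa9 (-0.37 ± 0.17) and Ndufs6 (-0.38 ± 0.18), both of complex I, came next (adjusted p = 0.81 and 0.83). These genes were picked for the smallest p, and the values of the 2 treatments, with 2 mice each, did not overlap. The share of all genes without overlap is not given here, so the separation adds no support.

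For late rapamycin against tamoxifen, 0.412% of all genes were called, and 0 members, with 18 members and 10.5% of all genes at an unadjusted p under 0.05 (DESeq2 called 0, and 1 unadjusted). The median log2 difference of the members was 0.17, and 72 of 77 were above 0, as were 50.5% of all genes. On both days 48 members were higher, and the like share of all genes is not given here. Atp5k, the small subunit e of ATP synthase, had 73.0 and 81.8 CPM in late rapamycin mice and 45.6 and 51.3 CPM in tamoxifen mice (0.67 ± 0.16, adjusted p = 0.087). Sdhb had 74.1 and 99.8 CPM in late rapamycin mice and 58.8 and 63.4 CPM in tamoxifen mice (0.54 ± 0.14, adjusted p = 0.15). Ndufa5 differed by 0.49 ± 0.16 (adjusted p = 0.26). For all 3 genes, again picked for the smallest p, the late rapamycin mice were above the tamoxifen mice, which adds no support. In non-dividing cells alone, the members' median was 0.06, with 48 of 77 above 0.

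For tamoxifen with rapamycin against late rapamycin, 0.577% of all genes were called, and 0 members, with 24 members and 13.6% of all genes at an unadjusted p under 0.05 (DESeq2 called 0, and 1 unadjusted). The median of the members was -0.21, with 7 of 77 above 0, as were 49.5% of all genes. On both days 51 members were lower, and the like share of all genes is not given here. Cox5b of complex IV had 157 and 183 CPM in tamoxifen with rapamycin mice and 200.2 and 242 CPM in late rapamycin mice (-0.39 ± 0.11, adjusted p = 0.11). Uqcrq had 72.8 and 77.9 CPM in tamoxifen with rapamycin mice and 106 and 105 CPM in late rapamycin mice (-0.48 ± 0.14, adjusted p = 0.12). Atp5k differed by -0.57 ± 0.16 (adjusted p = 0.12). For all 3 genes, picked in the same way, both tamoxifen with rapamycin mice were below both late rapamycin mice, which adds no support. In non-dividing cells the median was -0.11, with 18 of 77 above 0.

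**Figure D5:**
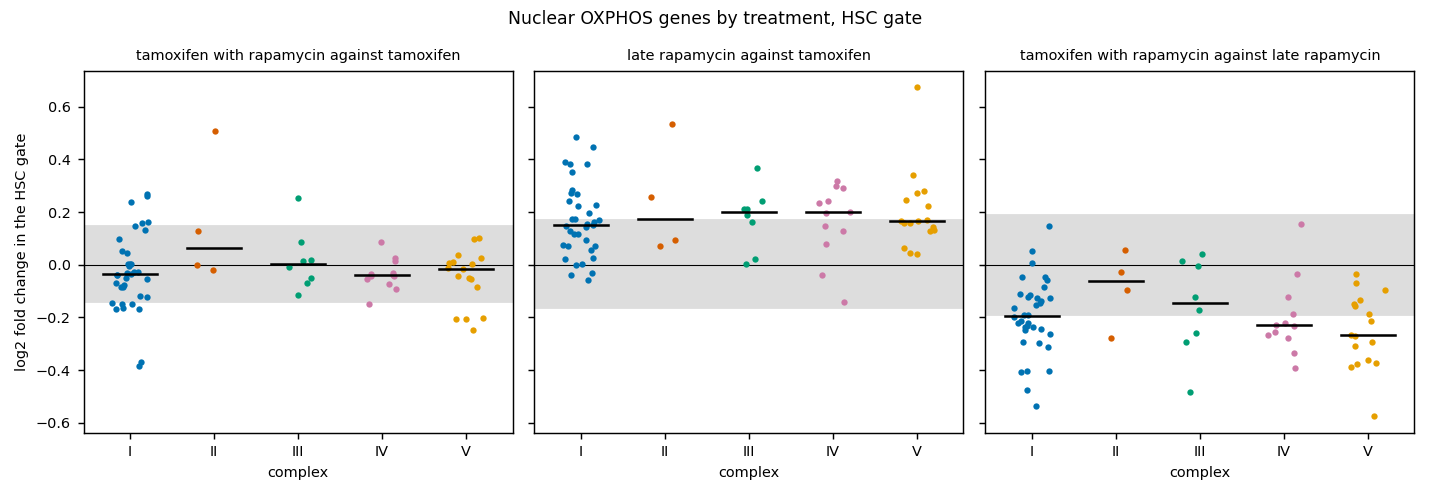
Log2 fold changes of 77 nuclear genes in the HSC gate for the 3 treatment comparisons, by complex; points are genes, black lines are medians of a complex, and the grey band is the interquartile range of all genes tested. Members lie around -0.03 for tamoxifen with rapamycin against tamoxifen, mostly above 0 for late rapamycin against tamoxifen and mostly below 0 for tamoxifen with rapamycin against late rapamycin.

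These counts rested on single mice. Without late rapamycin replicate 1, some members passed in both comparisons with late rapamycin, and a larger share of all genes did than with 6 mice. That fit left late rapamycin with 1 mouse, so its calls add no support. Without tamoxifen with rapamycin replicate 1 the late rapamycin against tamoxifen comparison called 1 member and 1.005% of all genes. For tamoxifen with rapamycin against tamoxifen, leaving out either late rapamycin mouse gave 1 call, where 1.19% and 1.31% of all genes were called. Other cell types' markers in the HSC gate were low but not equal. The summed level of the 5 granulocyte-monocyte and neutrophil progenitor markers was 343 and 379 CPM in tamoxifen with rapamycin mice, 265 and 128 CPM in late rapamycin mice, and 329 and 237 CPM in tamoxifen mice, with none of the 5 at 0. The 8 erythroid markers summed to 31.0 to 55.1 CPM in all 6 mice, with 0 to 2 of them at 0. The part of these markers and of division in the treatment values was not tested.

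Of the other lists in the HSC gate, 3 genes were called. Rplp0, a protein of the ribosomal stalk, had 1378 and 1491 CPM in tamoxifen with rapamycin mice, 2122 and 2130 CPM in late rapamycin mice and 2104 and 1873 CPM in tamoxifen mice. It was lower with tamoxifen and rapamycin than with tamoxifen (-0.48 ± 0.08, adjusted p = 0.044) and than with late rapamycin (-0.57 ± 0.08, adjusted p = 0.0050). Hspd1, a mitochondrial chaperone, had 284 and 245 CPM in tamoxifen with rapamycin mice, 382 and 361 CPM in late rapamycin mice and 289 and 252 CPM in tamoxifen mice. It was higher with late rapamycin than with tamoxifen (0.46 ± 0.09, adjusted p = 0.049) and lower with tamoxifen and rapamycin than with late rapamycin (-0.50 ± 0.10, adjusted p = 0.031). Ldha, the lactate dehydrogenase of glycolysis, was lower with tamoxifen and rapamycin than with late rapamycin (-0.56 ± 0.11, adjusted p = 0.031). The 13 mitochondrially encoded subunits had no call in any comparison, and 3, 1 and 9 of them were above 0 in the order of the comparisons given above.

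In the 7 other gates, 522 pairs of member and gate were tested per comparison. For tamoxifen with rapamycin against tamoxifen, 1 pair was called, where 0.161% of all genes were. This was Cox6a1 in erythroid progenitors, with 497 and 494 CPM in tamoxifen with rapamycin mice, 534 and 545 CPM in late rapamycin mice and 584 and 567 CPM in tamoxifen mice. Cox6a1 fell by 0.25 on the log2 scale (SE 0.05, adjusted p = 0.037), and the call was lost with plain library totals and without any one of the 4 mice compared. For late rapamycin against tamoxifen and for tamoxifen with rapamycin against late rapamycin, edgeR called 0 pairs each, and 0.31% and 0.149% of all genes. At an unadjusted p under 0.05 there were 48 and 21 pairs, against 8.22% and 7.81% of all genes, and DESeq2 called 0 and 0. For late rapamycin against tamoxifen, 73 of 78 members were above 0 in the Flt3 and Dntt gate. Granulocyte-monocyte and neutrophil progenitors had 75 of 78. Myelocytes had 68 of 77, monocytes 67 of 77 and mature neutrophils 42 of 58. Pro-B and pre-B cells had 54 of 77 and erythroid progenitors 29 of 77. Of all genes, 48.8 to 50.5% were above 0 in these gates. Leaving out late rapamycin replicate 2 raised the calls in both comparisons with late rapamycin, for members and for all genes. That fit left late rapamycin with 1 mouse, replicate 1, whose gated cells stood apart from those of the other mice. Its calls therefore add no support.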

How the data were processed

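The deposited matrices hold raw counts of UMIs per gene and cell for each day pool, and the authors used Cell Ranger 7.0.0 and the mm10 build, per the submitters' processing notes, while a matrix header names version 8.0.1. Whether introns were counted, and on which strand, is not given in the sources used here. Of 25058 and 21409 barcodes on days 1 and 2, cells with at least 500 genes, 1000 UMIs and at most 10% mitochondrial UMIs were used. A cell was given to a mouse where exactly 1 hashtag exceeded its threshold on a centred log scale. This was the background median plus 3.09 SD, with the SD estimated from the median absolute deviation. The midpoint between the means of low and high cells was used where it was larger, or where the first value reached the high mean. Cells with several hashtags (2917 and 2202) were removed as doublets, but doublets within a mouse were not. A gate needed UMIs of at least 3 of its markers and a score 1.5 times that of the next gate, and 6474 cells between gates and 5426 with few markers were left out.

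UMIs were summed per mouse and gate and tested with edgeR 4.0.16 in R 4.3.3 (quasi-likelihood, TMM, filterByExpr). Treatments were fitted over 6 mice with day as a block, because mice of a day were pooled together. Day by day, mice were compared on a log2 scale after adding 1 to the CPM. Gates and dividing cells were compared with mouse as a block, since both sides come from the same animals. DESeq2 1.42.0, other scalings, no filter, stricter cells, gates on cells thinned to 1000 UMIs, no block and leaving out each mouse were tried. Python 3.11.15, numpy 2.4.6, pandas 2.3.3 and scipy 1.17.1 were used for the rest. The scripts were tested on simulated data.

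The genes and lists were chosen with earlier results of these data known. The rule for named genes took, in each gate and in dividing cells, up to 4 genes in each direction past the threshold with the largest differences and the same sign in all 6 mice, all genes called between treatments or, in the HSC gate, the 3 with the smallest p. It also took complex II, the paralog groups, the gene with the most UMIs in each complex, the genes nearest the 50 UMI minimum and up to 2 called genes of each list. Ndufa3 was named after its values were seen. Each mouse is 1 sample, and the limit from 3 UMIs covers counting error only.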

Additional observations from a re-analysis of the deposited data

Results flagged for a closer look

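In 72 groups of 6 mice examined, 12 held 1 mouse far from the other 5, and chance gives about 1 in 20 such groups. The groups share mice, and shares within a paralog group depend on each other, so the 12 are not separate events. An excess over chance was not tested. Late rapamycin replicate 1 was that mouse in 9 of them. In the granulocyte-monocyte and neutrophil progenitor gate it had the nuclear genes at 2.21% of UMIs (median of 6 mice 1.92%), a ratio of nuclear to mitochondrially encoded UMIs of 1.479 (median 1.10), an Atp5g1 share of 42.2% (median 36.5%) and a Cox7a2l share of 32.7% (median 47.2%). Its myelocytes had a ratio of 1.44 (median 2.00), and its monocytes had the nuclear genes at 1.80% (median 1.49%). Its pro-B and pre-B cells, 82 in number, had an Atp5g2 share of 62.8% (median 53.0%) and an Atp5g3 share of 13.1% (median 22.5%). Without that mouse these shares averaged 53.0% and 22.5%. In the HSC gate its Cox4i2 share was 3.53% (median 1.09%).

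Cox4i2 was far from the other mice in 3 more gates, on few UMIs. In tamoxifen with rapamycin replicate 1 its share was 0.909% in myelocytes and 0.939% in monocytes, and the median of the 6 mice was 0 in both gates. In tamoxifen with rapamycin replicate 2 it was 0.0306% in erythroid progenitors (median 0.0055%).

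The summed level of the nuclear genes went in opposite directions between gates for tamoxifen with rapamycin against tamoxifen. The log2 ratio was 0.0701 on day 1 and 0.0668 on day 2 in monocytes, -0.0828 and -0.0238 in myelocytes, and -0.0217 and -0.047 in erythroid progenitors. The difference between gates was not tested.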

How the results depend on the processing

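With plain library totals the split turned in myelocytes, to 16 higher and 39 lower, against 57 and 7 with TMM. Mature neutrophils had 1 higher and 64 lower, against 24 and 29. The shares of all genes called with plain totals are not given here. Without the replicate block, that is, without day, no nuclear gene was called in the HSC gate, and 0 pairs in the other gates for tamoxifen with rapamycin against tamoxifen. Without mouse as the block, 75 genes were called in granulocyte-monocyte and neutrophil progenitors and 60 higher in dividing HSCs. For that treatment comparison, calls in the other gates were also 0 with plain library totals, DESeq2, thinned gates or non-dividing cells, and 2 without the low-count filter. Without the filter, late rapamycin against tamoxifen gave 1 call in the HSC gate and 3 in the others, and tamoxifen with rapamycin against late rapamycin gave 1 and 1. Leaving out 1 mouse gave 0 to 1, 0 to 7 and 0 to 11 calls in the HSC gate for tamoxifen with rapamycin against tamoxifen, late rapamycin against tamoxifen, and tamoxifen with rapamycin against late rapamycin, and 0 to 10, 0 to 107 and 0 to 91 in the other gates. A treatment left with 1 mouse is assumed to vary like the others. In non-dividing cells, a choice made after seeing the data, calls were 12 in the Flt3 and Dntt gate and 40 in pro-B and pre-B cells. The summed levels there were 0.957% in the HSC gate, 1.03% in the Flt3 and Dntt gate, 1.53% in granulocyte-monocyte and neutrophil progenitors, 0.773% in myelocytes, 1.36% in monocytes and 1.02% in pro-B and pre-B cells. With stricter cells pro-B and pre-B cells were at 1.64%. The causes were not tested. Of values of single named genes under alternatives, 544 kept their sign and side of the threshold, 10 lost it, 8 gained it and 1 turned sign (Sdhb in the HSC gate, tamoxifen with rapamycin against tamoxifen, -0.072 with thinned gates), where both other scalings and non-dividing cells were added after seeing the data. Stricter cells in mature neutrophils and non-dividing cells in erythroid progenitors were not run, as too few cells were left. Mature neutrophils rested on 77 to 399 cells per mouse.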

Other observations

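Gates with fewer than 50 cells in a mouse were not tested. Megakaryocyte progenitors had the nuclear genes at 1.62 ± 0.12% of UMIs (SD, n = 6 mice, 32 to 54 cells each), plasmacytoid dendritic cells at 1.14% and mature B cells at 0.88% on average.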
